A study of Mus musculus with 12 samples.

Results

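The inducible acute phase genes of the liver were compared between germ-free (GF) and conventionalized (CV) mice. The 10 genes were Saa1, Saa2, Saa3, Saa4, Orm1, Orm2, Orm3, Hp, Hpx and Lcn2, taken by symbol from a table of 41128 genes, and all 10 were present. RNA was sequenced from the whole liver of 12 C57BL/6 mice with no genetic change. GF mice stayed in sterile isolators throughout. CV mice were littermates that left the isolators at weaning, at about day 21, and lived for 3 weeks in cages with used bedding, which carries microbes. All mice were 6 weeks old, and 3 mice of each labelled sex were sequenced per condition (4 groups), with 1 library a mouse. Leaving the isolator and receiving microbes came together, so they cannot be told apart.

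Acute phase proteins are plasma proteins that hepatocytes make in larger or smaller amounts during inflammation. Interleukin 6 acts through STAT3, and interleukin 1 and tumour necrosis factor act through NF-kB and C/EBP factors, to raise the positive acute phase genes. Serum amyloid A proteins travel on high-density lipoprotein, orosomucoids carry lipophilic molecules, haptoglobin and hemopexin capture free haemoglobin and haem, and lipocalin 2 binds bacterial iron-carrying siderophores.

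Values are read counts divided by 1 size factor per library. Reads per library ranged from 5993619 to 15290835. The libraries differed in composition with condition: 6 abundant loci, led by Lars2 and mt-Rnr2, took 40.9% to 68.5% of the reads in GF and 5.10% to 21.3% in CV libraries. They also differed with labelled sex. In GF these loci took 40.9% to 50.8% in males and 57.4% to 68.5% in females. In CV they took 5.10%, 20.7% and 21.3% in libraries labelled male and 5.48% to 7.63% in females. Mitochondrial ribosomal RNA took 9.36% to 16.4% in GF and 1.39% to 6.32% in CV libraries, and differences among the 4 group means made up 93.5% of its variance. The library labelled CV male 3 went against its label, with an Xist value of 2382 and 0 reads from the Y-linked genes checked, against 796 to 1314 such reads in the other 5 libraries labelled male. It was kept under its label, and results that rest on it are given with and without it. All 10 hepatocyte markers checked were detected.

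Over both labelled sexes, 8 of the 10 genes were higher in CV than in GF livers and 0 were lower. The limma test on log2(value + 1), with Benjamini-Hochberg adjustment over 11782 genes, called 32.3% of all genes higher and 28.7% lower. Lcn2 rose by 2.32 ± 0.43 (SE, adjusted p = 2.39e-04) on the log2 scale, Hpx by 2.04 ± 0.31 (adjusted p = 3.60e-05) and Orm1 by 1.74 ± 0.28 (adjusted p = 6.10e-05). Saa2 rose by 1.44 ± 0.38, Hp by 1.43 ± 0.29, Saa1 by 1.29 ± 0.39, Orm2 by 1.28 ± 0.37 and Saa4 by 0.87 ± 0.21, with adjusted p-values from 4.80e-04 for Hp to 0.00927 for Saa1. Saa3 (0.78 ± 0.43, adjusted p = 0.123) and Orm3 (-0.03 ± 0.40, adjusted p = 0.954) did not pass. The median log2 difference was 1.36 over the 10 genes and 0.07 over all genes tested. Without the library labelled CV male 3, all 8 genes still passed, with Lcn2 at 1.92 and Saa1 at 0.96. With the mitochondrial rRNA share as a covariate, 0 of the 10 genes and 0 of 11782 genes passed, with 1985 genes at an unadjusted p under 0.05. The SEs of the 10 genes then grew to at least 0.63, from at most 0.43. Of the 8 called genes Saa4 changed sign (-0.64) and Hpx was smaller (1.60), while the other 6 were larger than before, from 1.44 for Saa1 to 5.26 for Lcn2. The part of library composition in these differences was not tested. In whole liver, fewer cells of a type and less RNA per cell cannot be told apart.

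The 2 labelled sexes gave different counts. Their libraries also differed in the share of the abundant loci, and its part in these counts was not tested. In females 8 of 10 genes passed, against 29.8% of all genes higher in CV. In males 2 of 10 genes passed, Lcn2 and Hpx, against 14.1% of all genes. Without the library labelled CV male 3, 0 of 10 passed in males by limma, against 12.1% of all genes, and Hpx was the 1 gene whose adjusted p stayed under 0.1 (0.0726). The unadjusted p was then under 0.05 for 1 of 10, again Hpx. DESeq2 on all 12 libraries called 5 of 10 in males, against 12.5% of the 15376 genes it tested. The test of the difference between the sexes passed for 0 of the 10 genes and 0% of all genes, with 1382 of 11782 genes at an unadjusted p under 0.05, so the smaller male differences were not shown to differ from the female ones. Among the 10 genes, 4 had an unadjusted p under 0.05 in that test: Saa1 (-2.22 ± 0.78), Orm1 (-1.36 ± 0.56), Hpx (-1.49 ± 0.61) and Saa4 (-0.91 ± 0.42). Each had a smaller CV-minus-GF difference in males and an adjusted p of 0.417 to 0.424. Without the library labelled CV male 3, 0 of 10 passed again, against 0 higher and 4 lower of 11782 genes. Orm2 (-2.27 ± 0.52) and Saa1 (-2.88 ± 0.68) had the smallest unadjusted p in that fit. Lcn2 (-1.89 ± 0.71), Orm1 (-1.515 ± 0.59) and Hpx (-1.535 ± 0.67) were also under 0.05, and Saa4 (-0.74 ± 0.44) was not. The adjusted p was 0.374 for Orm2, 0.462 for Saa1 and 0.620 for Lcn2, Orm1 and Hpx.

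**Figure D1:**
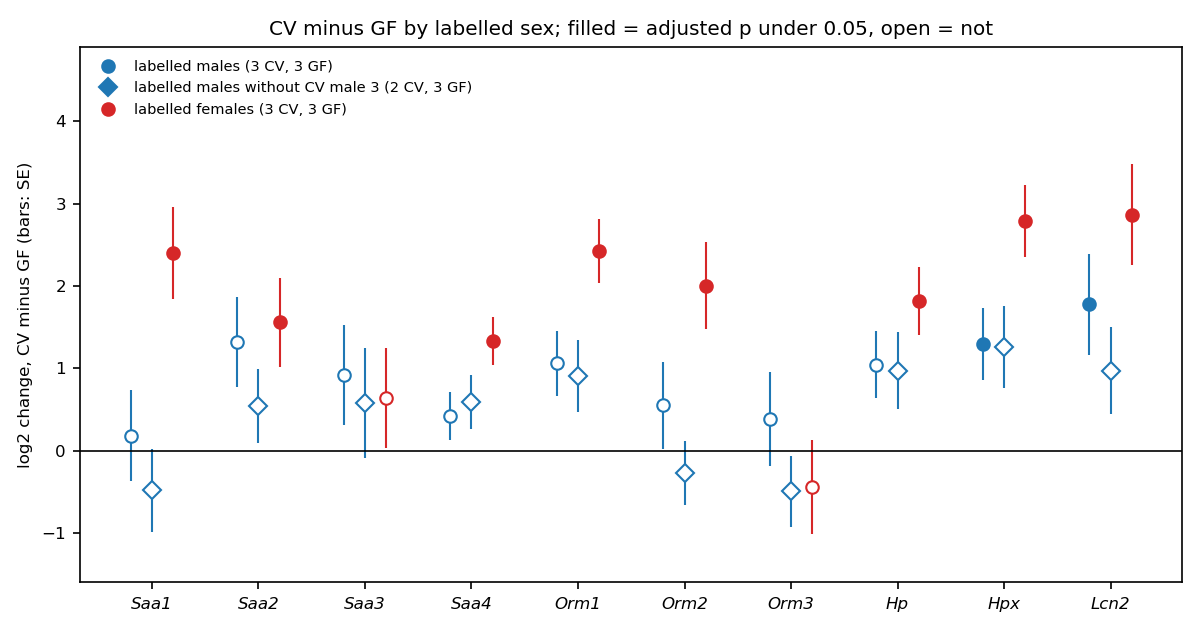
Log2 difference, CV minus GF, of each gene in limma (y axis; bars are the SE) for labelled males (blue circles), labelled males without the library labelled CV male 3 (blue diamonds) and labelled females (red circles). Filled symbols have an adjusted p under 0.05: 8 in females, 2 in males and 0 in males without that library.

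The groups did not overlap for 8 of 10 genes in females, with every CV library above every GF library, against 34% of all genes tested. In males this held for 2 of 10 genes, Hp and Hpx, against 22% of all genes. It held for the same pair of genes without the library labelled CV male 3, against 26.3% of all genes. In that set 1 of 10 genes, Orm3, had every CV library below every GF library, against 2886 of 11782 genes.

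Hpx, the gene of the plasma haem scavenger hemopexin, passed in both labelled sexes, and in males its adjusted p was 0.0726 without the library labelled CV male 3. It lies at chr7:105591613-105600137 on the minus strand (GRCm38). In females the GF values were 5487, 8906 and 3168, and the CV values were 37268, 36100.1 and 37988. In males the GF values were 6519, 14905 and 9814, and the CV values were 34049, 16180.2 and 25628. Every CV library was above every GF library of its sex, and the ratio of group means was 6.34 in females and 2.43 in males. Leaving out the library labelled CV male 3 gave a male ratio of 2.41. The 3 CV female libraries lay close together, at 37119 ± 953 (SD, n = 3). The log2 difference was 2.79 ± 0.43 in females (adjusted p = 7.94e-05) and 1.30 ± 0.43 in males (adjusted p = 0.0347).

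Haptoglobin captures haemoglobin released from red cells, and its gene Hp lies at chr8:109575128-109579172 on the minus strand. Hp was 13395, 27060.5 and 20029 in GF males and 38048, 37891 and 43961 in CV males. In females it was 11512, 15587 and 6855 in GF and 32125, 41540.0 and 40357 in CV. All 6 CV libraries were above all 6 GF libraries. The means of the CV groups were 39967 ± 3460.3 in males and 38008 ± 5128 in females (SD, n = 3 each). Hp rose by 1.82 ± 0.41 in females (adjusted p = 0.00142), and the male difference of 1.04 ± 0.41 did not pass (adjusted p = 0.0646).

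The orosomucoid genes lie side by side on chromosome 4, plus strand: Orm1 at chr4:63344560-63348163, Orm3 at chr4:63356162-63359511 and Orm2 at chr4:63362449-63365878. Transcripts of Orm1 and Orm2 were 91.0% identical, those of Orm2 and Orm3 88.0% and those of Orm1 and Orm3 86.1%. Of the 50-base windows of each gene's transcripts, 20.4% of Orm1, 22.7% of Orm2 and 3.59% of Orm3 also occurred in another gene, so reads of Orm1 and Orm2 may have been left out or assigned to either.

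Orm1 carried nearly all of the family's reads. It was 1486, 4317 and 2372 in GF males and 5626, 3849 and 6373 in CV males. In females it was 1103, 1883 and 717 in GF and 5258, 7099 and 6179.9 in CV. The female groups did not overlap, while in males CV male 2 lay below GF male 2. The ratio of means was 5.01 in females (log2 difference 2.42 ± 0.39, adjusted p = 1.11e-04) and 1.94 in males (1.06 ± 0.39, adjusted p = 0.0518).

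Orm2 was 55.5, 99.8 and 99.2 in GF males and 79.1, 58.0 and 377 in CV males. In females it was 48.3, 95.8 and 34.5 in GF and 261, 200.2 and 206 in CV. It rose in females by 2.00 ± 0.52 (adjusted p = 0.00415). In males the difference of 0.55 ± 0.52 did not pass (adjusted p = 0.448), and it was -0.27 without the library labelled CV male 3, which held the value of 377.

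Orm3 did not pass in either sex. It was 34.9, 34.6 and 43.9 in GF males and 25.0, 27.8 and 169.9 in CV males, and in females 39.2, 26.6 and 82.4 in GF and 44.2, 32.2 and 23.5 in CV. The highest value of each condition was 1 library, labelled CV male 3 and GF female 3. Without the library labelled CV male 3, both CV males lay below all 3 GF males, as they did for 2886 of 11782 genes. The log2 difference of Orm3 was then -0.50 (adjusted p = 0.415). The male difference with all libraries was 0.39 ± 0.57, and the female one was -0.44 ± 0.57 (adjusted p = 0.635 and 0.522). Over both sexes its sign changed with the scaling, from -0.03 to 0.51 when values were scaled to all reads.

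The bases before the start sites of Orm2 and Orm3 are shown because the genes are close copies and Orm2, but not Orm3, passed in females. The difference between the genes was not tested. Both come from the RefSeq promoter table on GRCm38.p6, plus strand, 5′ to 3′, at chr4:63362199-63362448 for Orm2 and chr4:63355908-63356068 for Orm3, leaving out annotated exons. Capitals mark matches to the C/EBP motif TTNNGNAA on either strand.
Orm2: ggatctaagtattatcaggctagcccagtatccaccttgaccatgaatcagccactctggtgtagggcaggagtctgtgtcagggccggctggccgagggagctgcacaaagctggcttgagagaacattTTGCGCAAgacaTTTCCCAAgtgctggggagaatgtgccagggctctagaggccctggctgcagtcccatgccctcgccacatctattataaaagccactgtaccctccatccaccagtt
Orm3: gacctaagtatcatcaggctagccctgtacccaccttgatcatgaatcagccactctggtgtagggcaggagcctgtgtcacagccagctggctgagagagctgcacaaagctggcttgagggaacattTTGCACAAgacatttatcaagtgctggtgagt

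Over the 250 bases before the start, Orm2 and Orm3 were 85.5% identical. Orm2 held 2 matches, at -120 to -113 and -108 to -101 from its start, and Orm3 held 1, at -121 to -114. The motif is short and common: 36.9% of 32851 promoter windows held it. Of the 10 genes, 8 were in the promoter table, all but Hp and Orm1, and all 8 held at least 1 match. NF-kB motifs (GGGRNNYYCC, with R for A or G and Y for C or T) were found in 7.25% of all windows. STAT motifs (TTCNNNGAA) were found in 7.02%, and both were found in 0 of these 8 windows. At such shares 0 of 8 does not set these genes apart. Sites that depart from the pattern or lie outside the window were not sought. A match is a match of letters only.

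The serum amyloid A genes lie together on chromosome 7: Saa3 at chr7:46711998-46715700, Saa4 at chr7:46727998-46732603 and Saa1 at chr7:46740497-46742980 on the minus strand, and Saa2 at chr7:46751790-46754313 on the plus strand. Saa1 and Saa2 encode the main inducible forms made by the liver. Their transcripts were 93.9% identical, and 31.5% of the windows of Saa1 and 30.0% of those of Saa2 also occurred in another gene, so the split of reads between them is uncertain.

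Saa1 was 199.7, 937 and 951 in GF males and 433, 375 and 1602 in CV males. In females it was 46.8, 45.2 and 46.0 in GF and 169.9, 234 and 378 in CV. The GF females were the lowest group, resting on 17 to 31 reads per library, and each was below every other library. The ratio of means was 5.66 in females, where Saa1 rose by 2.40 ± 0.55 (adjusted p = 0.00172). In males the ratio was 1.15, with a log2 difference of 0.18 ± 0.55 (adjusted p = 0.826). Without the library labelled CV male 3 that ratio was 0.581 and the log2 difference was -0.48 (adjusted p = 0.504), and without GF male 1 the difference was -0.56 (adjusted p = 0.441).

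Saa1 was also the 1 gene of the 10 that passed the test between the sexes in limma on the deposited values. In GF livers it was higher in males than in females by 3.58 ± 0.55 on the log2 scale (adjusted p = 0.00315), against 1.23% of all genes higher in GF males. This count depended on the scaling: 6 of 10 passed when values were scaled to all reads (Saa1, Saa2, Saa4, Orm1, Hp and Hpx), against 11.5% of all genes, and 2 of 10 by DESeq2 (Saa1 and Saa4), against 3.73%. The GF means were 696 ± 430 in males and 46.0 ± 0.788 in females (SD, n = 3 each), and the groups did not overlap. GF males and females also differed in the share of the abundant loci, and its part here was not tested. Saa4 was higher in GF males by 1.14 ± 0.30 and did not pass (adjusted p = 0.0602). In CV livers 0 of 10 genes passed by limma, against 0.0594% of all genes in either direction, and 1 of the 10 had an unadjusted p under 0.05 (Saa1, 1.37 ± 0.55). DESeq2 and edgeR also called 0 of 10 there. Without the library labelled CV male 3, limma called 0 of 10 in CV livers, against 44 higher and 33 lower of 11782 genes. Orm2 was then at -1.69 ± 0.39, male minus female (unadjusted p = 4.25e-04, adjusted p = 0.0589). Lcn2 was at -1.555 ± 0.53 (unadjusted p = 0.00904, adjusted p = 0.532), and Saa1 was at 0.71 ± 0.50 (unadjusted p = 0.180).

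Saa2 was 40.3, 118 and 112 in GF males, 115, 122 and 598 in CV males, 19.6, 39.9 and 44.1 in GF females and 74.9, 92.0 and 136 in CV females. It rose in females by 1.56 ± 0.54 (adjusted p = 0.0229). The male difference of 1.31 ± 0.54 (adjusted p = 0.0783) was 0.54 without the library labelled CV male 3 (adjusted p = 0.388).

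The share of Saa2 among the reads of Saa1 and Saa2 differed between libraries. It was 16.8%, 11.2% and 10.5% in GF males (95% Wilson intervals 12.8% to 21.7%, 9.21% to 13.6% and 8.53% to 12.9%). It was 29.5%, 46.9% and 48.9% in GF females, from 44, 32 and 47 reads, with intervals from 18.2% to 63.5% in all. In CV livers it was 21.0%, 24.6% and 27.2% in males and 30.6%, 28.3% and 26.5% in females. The GF shares did not overlap between the sexes (exact permutation test, two-sided, p = 0.1, the smallest p that 3 against 3 allows). All 3 CV male shares were above all 3 GF male shares. The intervals cover counting error only.

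**Figure D2:**
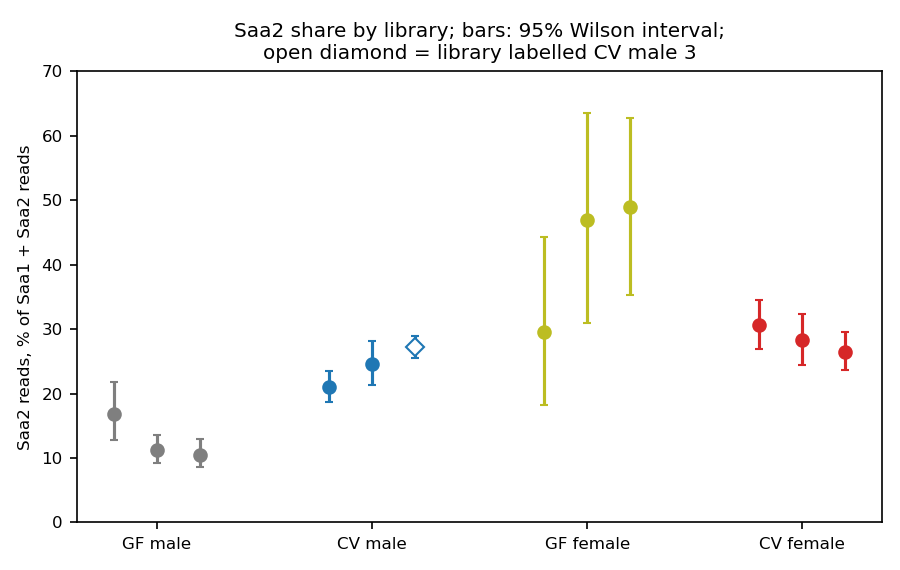
Share of Saa2 in percent of the reads of Saa1 and Saa2 (y axis), 1 point per library in 4 groups, with 95% Wilson intervals; the open diamond is the library labelled CV male 3. GF males lie at 10.5% to 16.8% and GF females at 29.5% to 48.9%.

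Saa4 encodes a form that is made constitutively and is a minor acute phase reactant. It was 2080.1, 2634 and 2977 in GF males and 5434, 2683 and 2676 in CV males. In females it was 1310.3, 1154 and 1002 in GF and 3017, 3198 and 2495 in CV. The female groups did not overlap, and Saa4 rose by 1.33 ± 0.30 (adjusted p = 0.00130). With the mitochondrial rRNA share as a covariate the difference was -0.79 ± 0.88 in females (adjusted p = 0.709) and -0.64 ± 0.63 over both sexes (adjusted p = 0.624). In males CV male 1 stood alone at 5434, and the difference of 0.42 ± 0.30 did not pass (adjusted p = 0.297).

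Saa3 is made largely outside hepatocytes, in macrophages and adipose tissue. Its mean deposited value was the lowest of the 10 genes in all 4 groups. Without the library labelled CV male 3, Orm3 was lower than Saa3 in CV males (26.4 against 29.6). Per kilobase of all annotated exons merged, Saa3 was the lowest in all 4 groups. That length was 2606 bases, while transcripts Saa1-201 and Saa3-201 aligned over 644 columns, so its place per kilobase depends on the length used. It was 11.6, 31.9 and 18.4 in GF males, 23.4, 35.8 and 60.0 in CV males, 15.1, 53.2 and 5.75 in GF females and 23.6, 21.5 and 39.1 in CV females. The groups overlapped in both sexes, and the differences of 0.92 ± 0.60 in males and 0.64 ± 0.60 in females did not pass (adjusted p = 0.262 and 0.381). The lowest value came from 3 reads.

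The bases before Saa2 and Saa4 are shown because these neighbours differ in how they are known to be induced. They come from the same table, 5′ to 3′ on the gene's strand, at chr7:46751583-46751789 (plus) for Saa2 and chr7:46732604-46732853 (minus) for Saa4, with C/EBP matches in capitals.
Saa2: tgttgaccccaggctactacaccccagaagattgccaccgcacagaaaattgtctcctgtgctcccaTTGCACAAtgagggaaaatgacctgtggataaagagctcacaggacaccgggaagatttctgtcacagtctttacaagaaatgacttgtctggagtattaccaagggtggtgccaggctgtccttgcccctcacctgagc
Saa4: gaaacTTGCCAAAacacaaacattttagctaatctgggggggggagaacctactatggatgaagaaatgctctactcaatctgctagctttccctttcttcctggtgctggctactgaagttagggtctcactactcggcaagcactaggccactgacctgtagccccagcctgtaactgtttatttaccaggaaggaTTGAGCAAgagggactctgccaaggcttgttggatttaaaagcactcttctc
The 250 bases before Saa1 and Saa2 were 94.8% identical, against 48.9% for Saa1 and Saa3 and 42.6% for Saa1 and Saa4. Saa2 held 1 match and Saa4 held 2.

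Lcn2, at chr2:32384633-32388252 on the minus strand, encodes lipocalin 2, which hepatocytes and neutrophils make. It was 26.0, 87.8 and 55.3 in GF males and 84.8, 117 and 532 in CV males, and in females 51.3, 69.2 and 17.3 in GF and 189, 377 and 358 in CV. The female groups were apart, with a ratio of means of 6.71 and a log2 difference of 2.86 ± 0.61 (adjusted p = 9.48e-04). In males CV male 1 lay below GF male 2. The male difference was 1.77 ± 0.61 (adjusted p = 0.0385), and 0.97 ± 0.53 without the library labelled CV male 3 (adjusted p = 0.183), where the ratio of means fell from 4.34 to 1.79. The summed value of 12 neutrophil markers was 5.20 to 61.3 over the 12 libraries and 23.6 in the library labelled CV male 3. Of these markers 1 of 12, Csf3r, passed the filter on low values. It was lower in CV by 1.89 (adjusted p = 0.00227), beside 28.7% of all genes lower. The part of neutrophils in the Lcn2 values was not tested.

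**Figure D3:**
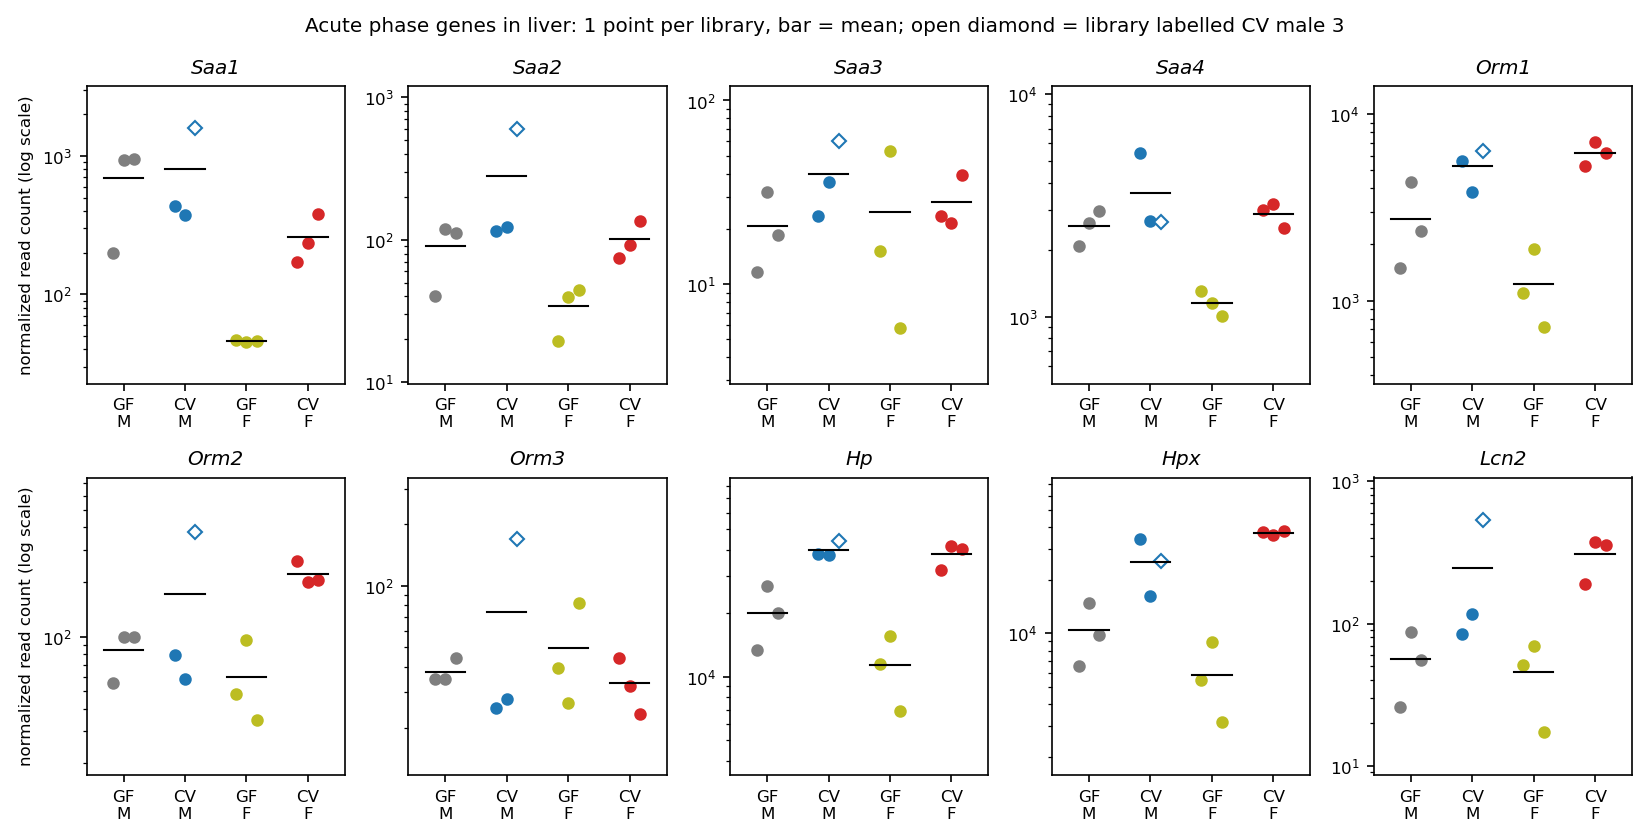
Normalized read count of each gene (y axis, log scale) in the 12 libraries, by condition (GF, CV) and labelled sex (M, F); bars are group means and the open diamond is the library labelled CV male 3. CV lies above GF in every library of both sexes for Hp and Hpx, and the open diamond is the highest of all libraries for Saa1, Saa2, Saa3, Orm2, Orm3, Hp and Lcn2.

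The library labelled CV male 3 held the highest value of all 12 libraries for 7 of the 10 genes: Saa1, Saa2, Saa3, Orm2, Orm3, Hp and Lcn2. Its summed value of Kupffer cell and macrophage markers was 3854, against 1724 and 2593 in the other CV males and 3266 to 4076 in the CV females. The part of these in the male results was not tested.

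Per kilobase of exon, the order in GF males was Hp (12554), Hpx (6946), Orm1 (3517), Saa4 (1224), Saa1 (281), Orm2 (109), Orm3 (48.9), Saa2 (35.8), Lcn2 (21.5) and Saa3 (7.93). In CV females Hpx (24762) and Hp (23666) stood at the top, and Orm2 (287), Lcn2 (117) and Saa1 (105) followed Orm1 (7973) and Saa4 (1386). Hp and Hpx in CV females differed by less than the spread between libraries, and Orm1 and Saa4 there by more. The length was that of all annotated exons of a gene merged, 2478 bases for Saa1 and 2518 for Saa2. Their transcripts Saa1-201 and Saa2-201 aligned over 609 columns, gaps included. The places of the Saa genes in these orders therefore depend on the length used, and no other length was tried.

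Library by library, the genes moved together to different degrees. After the group means were removed on the log2 scale, 35 of the 45 pairs of genes correlated positively over the 12 libraries. None of the 45 passed an exact permutation test within groups after Benjamini-Hochberg adjustment (1296 permutations). Orm1 and Hp had a Pearson r of 0.94 (p = 0.00386, adjusted p = 0.0868) and a Spearman rho of 0.93 (permutation p = 0.00231, adjusted p = 0.0521), and r was 0.89 without the 2 libraries farthest from the median. Saa1 and Saa2 had an r of 0.90 (permutation p = 0.0170, adjusted p = 0.0926) and a rho of 0.90 (adjusted p = 0.159), and r was 0.82 without 2 libraries. Orm2 and Orm3 had an r of 0.56 that became -0.52 without the library labelled CV male 3. Libraries share depth and composition, which enter each of these values.

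By the same measure, the genes most like Orm1 were Apof (r = 0.98), Bud31 (0.98) and Tonsl (0.98), and those most like Hp were Ndufa12 (0.99), Pcbd1 (0.99) and Spcs2 (0.99). Those most like Saa1 were Snx10 (0.95), Borcs8 (0.93) and Il18bp (0.91), and those most like Lcn2 were Nudt5 (0.99), Dusp3 (0.97) and Hist1h4d (0.96), all over 12 libraries and picked from all genes tested.

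Other acute phase genes were set beside these 10. Of 24 other positive acute phase genes, 19 rose in CV and 0 fell, beside 32.3% higher and 28.7% lower over all genes. Their median log2 difference was 1.40. Lrg1, a leucine-rich glycoprotein of plasma, rose by 2.58 ± 0.29 (adjusted p = 2.91e-06), with group means of 680 in GF and 8175 in CV females. Serpina3m, a serine protease inhibitor, rose by 1.79 ± 0.18 (adjusted p = 1.59e-06). Itih3, a hyaluronan-binding plasma protein, had a difference of -0.55 ± 0.24 (adjusted p = 0.0560).

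The negative acute phase genes, whose products fall in plasma during inflammation, also were higher. Of 10 such genes 8 rose and 0 fell, with a median of 1.30, beside 32.3% higher and 28.7% lower over all genes. Rbp4, the plasma retinol carrier, rose by 1.97 ± 0.27 (adjusted p = 1.67e-05). Serpina6, the corticosteroid-binding globulin, rose by 1.77 ± 0.22 (adjusted p = 7.77e-06). Positive and negative lists thus had medians of 1.40 and 1.30, and the difference between the lists was not tested. Hepatocyte markers had a median of 0.96, with 6 of 10 higher and 0 lower, beside the same shares of all genes. Their summed value was 111511 to 497544 in GF and 430283 to 654416 in CV libraries.

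The genes of the inducing pathways were called in both directions. Of 29 listed genes 26 were tested, and 5 rose and 9 fell, beside 32.3% higher and 28.7% lower over all genes. The list median was -0.19, and the difference from those shares was not tested. Among the ligands 2 of 5 were tested: Il1a, which encodes interleukin 1 alpha, fell by 1.25 (adjusted p = 6.02e-04), and Il1b differed by -1.29 (adjusted p = 0.0667). Il6, Tnf and Osm were below the filter on low values.

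Among the receptors 2 of 7 rose and 3 fell, again beside 32.3% and 28.7% of all genes. Tnfrsf1a, a tumour necrosis factor receptor, rose by 1.15 ± 0.14 (adjusted p = 6.74e-06) and Il1rap, the interleukin 1 receptor accessory protein, by 0.84 ± 0.20 (adjusted p = 0.00175). Il1r1, the interleukin 1 receptor itself, fell by 1.29 (adjusted p = 1.54e-05), and Osmr, the oncostatin M receptor, fell by 1.02 (adjusted p = 0.0179).

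Among kinases, adaptors and transcription factors 3 of 13 rose and 4 fell, beside 32.3% higher and 28.7% lower over all genes. Cebpa, a C/EBP factor of hepatocytes, rose by 1.55 ± 0.20 (adjusted p = 8.08e-06), and Myd88, an adaptor of Toll-like and interleukin 1 receptors, by 0.65 ± 0.19 (adjusted p = 0.00640). Nfkbiz, a nuclear I-kappa-B protein, fell by 1.67 (adjusted p = 4.71e-05) and Nfkb1, an NF-kB subunit, by 0.87 (adjusted p = 1.70e-04). Of 4 feedback inhibitors 1 fell and 0 rose. Zfp36, which binds cytokine mRNAs, fell by 0.62 (adjusted p = 0.00369), and Tnfaip3 (0.56, adjusted p = 0.175) and Nfkbia (-0.16, adjusted p = 0.390) did not pass.

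**Figure D4:**
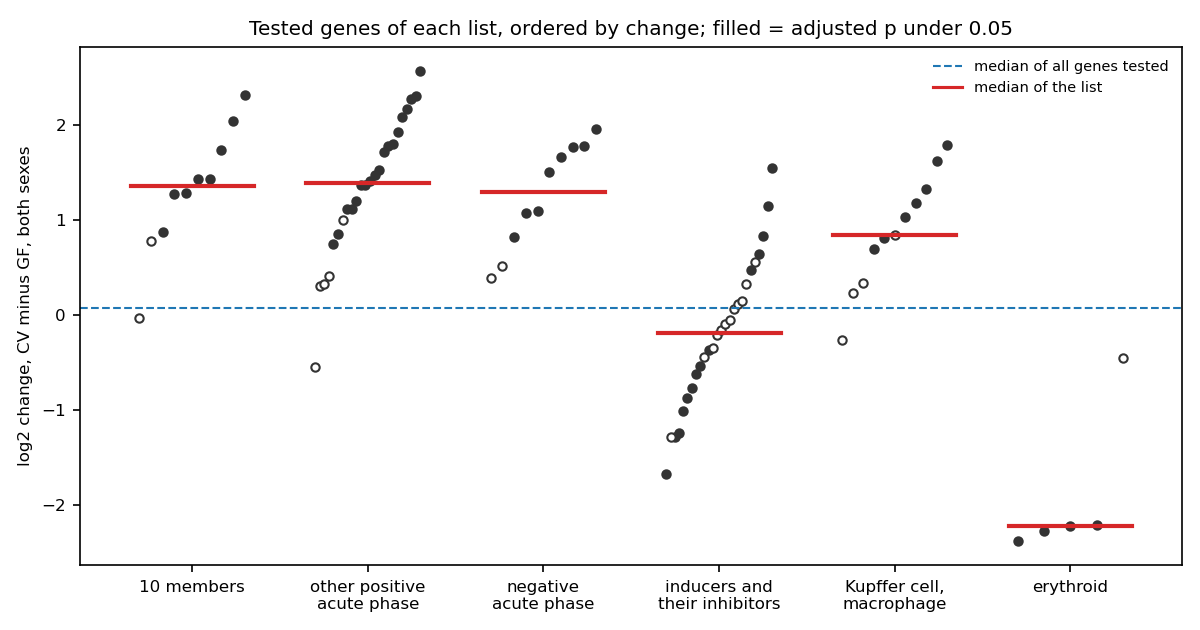
Log2 difference, CV minus GF over both sexes (y axis), of each tested gene in 6 lists, ordered within each list; filled points have an adjusted p under 0.05, red lines are list medians and the dashed blue line is the median of all genes tested (0.07). The acute phase lists have medians of 1.30 to 1.40, the inducer list -0.19.

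The products of Hp, Hpx, Saa1 and Lcn2 act with receptors and iron-handling proteins. Of 9 such partners 5 rose and 1 fell, beside 32.3% higher and 28.7% lower over all genes. Ftl1 and Fth1, the light and heavy chains of ferritin, rose by 2.30 ± 0.27 (adjusted p = 3.74e-06) and 1.99 ± 0.26 (adjusted p = 8.91e-06). Slc22a17, a lipocalin 2 receptor, fell by 1.11 (adjusted p = 0.0495), and Lrp1, the hemopexin-haem receptor, differed by -0.45 (adjusted p = 0.0815).

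Markers of other cells moved with condition too, and their counts stand beside 32.3% higher and 28.7% lower over all genes. Of 11 Kupffer cell and macrophage markers 7 were higher and 0 lower, with sums of 1274 to 2403 in GF and 1724 to 4076 in CV, and C1qa rose by 1.80 ± 0.27 (adjusted p = 3.40e-05). Of 5 erythroid markers 4 were lower, with sums of 2777 to 32885 in GF and 916 to 3159 in CV, and Hbb-bt fell by 2.39 (adjusted p = 1.46e-04). Of 8 adipocyte markers 3 were tested, with 1 higher (Cidec, 1.34, adjusted p = 0.00477) and 1 lower (Lpl, -0.47, adjusted p = 0.0404), and Lep had 0 reads in all libraries. The part of these cells in the acute phase differences was not tested.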

How the data were processed

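Liver RNA was extracted from snap-frozen tissue, and TruSeq stranded mRNA libraries were run on an Illumina HiSeq, per the labels. The submitters' processing notes name HTSeq 0.6.1p1, DESeq2 and build GRCm38, and the aligner was not given in the sources used here. The deposited signal is the authors' gene count divided by 1 size factor per library. In every library 100% of the deposited values were whole reads, within 0.01 reads, and the factors equalled the median-of-ratios factors over 12512 genes. The paper linked to the series describes another experiment, so no method came from it.

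Groups and replicate numbers came from the sample titles. limma 3.58.1 (R 4.3.3) was run on log2(value + 1) for 11782 genes with a mean value of at least 10, with 1 mean per group, a variance trend, Benjamini-Hochberg adjustment and a threshold of 0.05, on all 12 libraries. The log2(value + 1) scale understates changes of low genes. Total depth differed 2.55-fold, with more of it taken by the abundant loci in GF. Reads outside those loci were 1886932 to 5399556 in GF and 6994374 to 14453077 in CV libraries. Low genes therefore rest on fewer reads in GF libraries, and a count of 0 allows up to 3 reads. Alternatives on recovered reads used edgeR 4.0.16, DESeq2 1.42.0 and voom. The scripts were tested on simulated data. Coordinates are from GENCODE release M21 (GRCm38) and promoters from RefSeq (GRCm38.p6). The 10 genes and all lists were chosen with earlier results of these data known. Named genes were all 10 members, at most 2 genes per list in each direction by smallest p, and the 3 genes most alike in pattern to Saa1, Orm1, Hp and Lcn2.

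Replicate numbers of labelled males and females in CV correlated in their deviations from group means (r = 0.19, 0.12 and 0.17), a pairing read from the data and not from the labels, and the count there was 0 of 10 with that block too. No others were paired by that measure.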

Additional observations from a re-analysis of the deposited data

Results flagged for a closer look

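The 10 genes were each examined in the 6 GF and the 6 CV libraries, 20 groups in all, for a highest or lowest library whose gap to the next, over the range of the group, exceeded Dixon's 95% value for 6 samples (0.625). It did so in 5 groups. Chance gives about 1 in 20 for independent groups of 6 values from 1 normal distribution. Here the values were not logged, each group held both labelled sexes and the genes shared libraries, so that rate need not hold. The library labelled CV male 3 was the high one for Saa1 (1602, 0.816 of the range), Saa2 (597.8, 0.883) and Orm3 (169.9, 0.859). CV male 1 was the high one for Saa4 (5434, 0.761), and GF female 3 for Orm3 (82.42, 0.690). In the library labelled CV male 3, whose sex-linked reads go against its label, Hpx (25628) lay between the other CV males (16180.2 and 34049), and Saa4 (2676) lay just below both (2683 and 5434). The causes were not tested.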

How the results depend on the processing

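Counts are of genes past the threshold. In males the main count was 2, beside 1660 of 11782 genes higher in CV. It was 1 with a minimum mean value of 1 (1568 of 16190 genes higher) or scaling to reads outside the abundant loci (903 of 11918). It was 4 with a minimum of 50 (1599 of 8255), and 5 with scaling to all reads (2831 of 11746) or DESeq2 (1928 of 15376). With no filter on low values it was 0 (1238 of 22953). The male count ranged from 0 to 4 when each library was left out. It was 0 without GF male 1 (725 of 11782 genes higher), GF male 3 (984) or the library labelled CV male 3 (1431). It was 1 without CV male 1 (966), and 4 without GF male 2 (1781), GF female 2 (1909) or CV male 2 (1570). With 1 library left out, the ranges were 7 to 9 in females and 8 to 9 over both sexes (8 each), 0 to 0 for the difference between the sexes and for the sexes in CV, 1 to 2 for the sexes in GF (1), 17 to 21 for the other positive (19), 7 to 10 for the negative (8) and 11 to 14 for the inducer genes (14). Over all 11782 genes, the number higher in CV then ranged from 2961 to 3721 in females and from 3495 to 3956 over both sexes. The count for the sexes in GF was 2 without GF male 1 (263 of all genes higher in GF males), GF female 2 (640) or CV male 1 (230). It was 6 scaled to all reads (11.5% of all genes) and 2 by DESeq2 (3.73%). With the mitochondrial rRNA share as covariate, every one of these counts was 0. The negative list had 5 without a filter, beside 3768 higher and 4231 lower of 22953 genes. Replicate numbers did not pair GF with CV libraries (r from -0.23 to 0.02), nor males with females in GF (0.06 to 0.40). Not every library correlated best with its own number. For the sexes in GF the replicate block gave 4 in place of 1, beside 696 of 11782 genes higher in males. Under the block no other count moved by over 1.5 times.

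Scaling moved all genes: the median log2 difference over both sexes was 0.07, 0.64 scaled to all reads and -0.37 scaled to reads outside the abundant loci, and calls split into 3807 higher and 3387 lower, 5954 and 1565, and 2215 and 4905. Relative to those medians the median of the 10 genes was 1.28, 1.28 and 1.30. A scale factor shifts every gene of a library alike, apart from the added 1 and the filter on low values. These values were therefore bound to be close and do not test the part of composition. Outside the abundant loci 6 of 10 passed, without Saa1 (0.86) and Orm2 (0.84). For single genes, 721 of the recomputed values kept direction and side of the threshold, 35 lost and 25 gained significance, and 23 changed sign, none of them past the threshold after the change, though Saa4 in females and over both sexes had been before it. Saa1 in males became -0.10 outside the abundant loci, -0.56 without GF male 1 and -0.48 without the library labelled CV male 3, where Orm2 became -0.27 and Orm3 -0.50. Saa3 in females became -0.072 without GF female 3. With 1 library left out, Saa1 in males ranged from -0.56 to 0.57, Orm2 in males from -0.27 to 1.07, Saa3 in females from -0.072 to 1.43 and Orm3 over both from -0.47 to 0.21. With the covariate Saa4 became -0.49 in males, -0.79 in females and -0.64 over both, and Orm3 0.96 in females and 0.97 over both. Orm3 became 0.34 in females and 0.51 over both scaled to all reads. Over both it became 0.0031 with a pseudocount of 10, 0.057 with TMM, 0.15 and 0.19 by edgeR with TMM and with the deposited factors, 0.20 by DESeq2, and 0.03, 0.19, 0.21, 0.17 and 0.08 without GF male 3, GF female 3, CV male 1, CV male 2 and CV female 3. The cause was not tested. Depth limits Saa3, Orm3 and Lcn2 most, with as few as 3, 10 and 9 reads in a library.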
